A study of Mus musculus with 12 samples.

Results

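The Bcl2 family helps to decide whether a T cell survives. Its members were read here from every probe set that the array's annotation gives to one of 9 listed genes and to no other gene. Of these genes 8 had such probe sets, 27 in all among the 45037 non-control probe sets of the array, and 1 listed gene is not analysed here. There were 5 probe sets for Bcl2, 4 for Bcl2l1, 6 for Mcl1, 2 for Bak1, 5 for Bcl2l11, 3 for Bid and 1 each for Bbc3 and Pmaip1.

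The study measured CD4+ T cells of female mice with 12 Affymetrix whole-genome arrays, in 4 groups of 3, in a series on Th17 cells, the helper lineage that makes IL-17. SKG mice, an arthritis-prone strain on the BALB/c background whose Zap70, a kinase of T cell receptor signalling, is mutated, gave lymph node CD4+ cells at 40 weeks that were sorted as FR4- and stimulated with PMA and ionomycin. BALB/c mice of the same age gave cells labelled the same way in replicates 2 and 3, while the label of BALB replicate 1 gives CD4+ cells of spleen and lymph node and no FR4 sort. The IFN-γ-deficient transfer is labelled as IFNg KO BALB/c CD4+ T cells in RAG2 KO BALB/c hosts, taken from the spleen 7 days after transfer. The IL-6-deficient transfer is labelled as IL-6 KO BALB/c CD4+ T cells in IL-6 KO RAG2 KO BALB/c hosts, taken the same way. All transfer hosts lacked RAG2, which leaves a mouse without T and B cells of its own but with its innate cells. In the transfer comparison donor and host genotype differ together, and no transfer of unmodified cells was included. Transfer labels give 7 weeks of age and name no stimulation. SKG and BALB cells therefore differ from transfer cells in age, organ, labelled stimulation and host at once, which cannot be told apart.

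Mitochondrial apoptosis is set by the balance within this family. Bcl2, Bcl-xL (gene Bcl2l1) and Mcl1 are guardians that restrain cell death at the outer mitochondrial membrane, where Bak1 is an effector. The BH3-only proteins Bim (gene Bcl2l11), Bid, Puma (gene Bbc3) and Noxa (gene Pmaip1) bind these guardians or the effector itself and release the death signal. Once pores form, cytochrome c leaves the mitochondria and caspases are activated. In T cells Bim removes self-reactive thymocytes and ends immune responses, Bcl2 keeps resting cells alive under IL-7, and Bcl-xL is induced by costimulation.

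Bim and Mcl1 carried most of the lower values described next, so the bases before their annotated transcription starts are shown. These are the 250 bases before each start, from RefSeq on GRCm38.p6, all on the plus strand and written 5′ to 3′. The windows lie at chr2:128125788-128126037 and chr2:128127325-128127574 for Bcl2l11 and at chr3:95658471-95658720 for Mcl1. Capitals mark matches to GTAAACA, a motif of FOXO factors, or to GGG, any 2 bases and TTTCC, an NF-kB motif, on either strand.
Bcl2l11 first start: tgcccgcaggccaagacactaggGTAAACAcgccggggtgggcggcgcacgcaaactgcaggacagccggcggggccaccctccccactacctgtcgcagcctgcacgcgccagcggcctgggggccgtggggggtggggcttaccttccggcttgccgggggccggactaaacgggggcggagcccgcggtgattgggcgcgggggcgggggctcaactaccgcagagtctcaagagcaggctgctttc
Bcl2l11 second start: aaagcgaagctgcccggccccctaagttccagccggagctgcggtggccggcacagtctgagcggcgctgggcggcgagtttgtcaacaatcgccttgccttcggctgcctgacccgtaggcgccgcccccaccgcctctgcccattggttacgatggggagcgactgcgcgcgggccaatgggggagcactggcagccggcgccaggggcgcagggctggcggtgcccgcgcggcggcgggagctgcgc
Mcl1: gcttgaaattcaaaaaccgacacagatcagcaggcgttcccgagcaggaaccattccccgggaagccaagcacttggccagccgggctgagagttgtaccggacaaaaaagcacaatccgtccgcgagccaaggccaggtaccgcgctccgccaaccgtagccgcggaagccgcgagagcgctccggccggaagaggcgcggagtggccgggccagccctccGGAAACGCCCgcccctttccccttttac

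The first Bcl2l11 window held the FOXO letters once, beginning at position -227 from the start, and the second did not hold them. Of 32841 windows of the same length 3.17% held them. The Mcl1 window held the NF-kB letters once on the other strand, beginning at position -28, as did 1.41% of all windows. Windows of 7 member genes, 12 in all, were searched, of which 2 held the FOXO letters and 3 the NF-kB letters. The other FOXO match was in a window of Bbc3, and the other NF-kB matches were in windows of Bcl2l1 and Bbc3. A STAT motif, TTCNNNGAA, was in 0 of the 12 and in 7.02% of all windows, and the E-box CACGTG in 1 of the 12 and in 6.02% of all windows. None of the matches shown overlaps another, and a match in these letters is a description, not a binding site.

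Levels and differences below are on the scale log2(intensity + 16) after quantile normalization of the 12 arrays together, a scale that understates the change of dim probe sets. Dim probe sets, with a 6-array mean under a floor of 4.74 for SKG against BALB and 4.73 for the transfers (the 40th percentile of such means), were not tested. In each comparison 25 member probe sets reached the floor. The lowest group mean among them was 5.33, so none passed through one group alone. The 2 that did not were a Bcl2l1 probe set (1426050_at), whose values ran from 4.05 to 5.02 over the 12 arrays, and a Bak1 probe set (1425716_s_at), whose values ran from 4.07 to 4.98. A call means an adjusted p under 0.05 by limma over all 27022 probe sets tested. Probe sets of one gene read the same transcripts and are not independent, and the labels do not tie replicates to different animals. The p-values therefore cover only the spread between arrays, which may be technical.

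Probe sets of Bim, Mcl1 and Bcl-xL were called lower in SKG cells than in BALB cells, and no member was called higher. Of the 25 tested member probe sets 13 were called lower in SKG and 0 higher, where 9.89% of all probe sets tested were called lower and 10.3% higher. With the replicate block 15 were called lower and 0 higher, where 13.6% of all were called lower and 14.2% higher. The 13 were the 5 of Bcl2l11, 5 of the 6 of Mcl1, 2 of the 3 tested of Bcl2l1 and 1 of the 5 of Bcl2. Among guardians 8 of 14 tested probe sets were lower and among BH3-only genes 5 of 10, all of them Bcl2l11. Groups did not overlap, with SKG lower, in 17 of the 25, where the same held for 18.7% of all probe sets tested. The median difference was -0.39 over the 25 and -0.0037 over all probe sets tested. The members were chosen with earlier results of these data known. Their counts therefore stand beside those of all probe sets as description only, here and below. The count of 13 became 4, all of Bcl2l11, when BALB replicate 1 was left out, and 6 without SKG replicate 1 or without BALB replicate 2. BALB replicate 1 is the array whose label gives cells of spleen and lymph node and no FR4 sort. The part of that labelled difference in the calls was not tested.

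Bcl2l11, whose product Bim starts the death of activated and self-reactive T cells, showed the widest gap among the 8 member genes. Probe set 1435448_at had 10.67, 10.64 and 11.66 in the SKG arrays, in the order of their numbers, against 12.60, 12.48 and 12.56 in the BALB arrays. All SKG arrays were below all BALB arrays, and the level fell by 1.56 ± 0.24 (SE, n = 3 each, limma adjusted p = 0.0024). Probe set 1435449_at had 9.22, 9.08 and 9.33 in SKG arrays, against 11.23, 10.95 and 10.27 in BALB arrays. It fell by 1.60 ± 0.23 (limma adjusted p = 0.0018), again with no overlap. Probe set 1456006_at had 7.63, 7.46 and 8.71 in SKG, against 9.87, 9.65 and 9.92 in BALB. It fell by 1.88 ± 0.30 (limma adjusted p = 0.0030), which is 3.68-fold on this scale. Probe set 1426334_a_at had 6.86, 6.47 and 7.37 in SKG, against 8.52, 8.71 and 8.67 in BALB, and fell by 1.73 ± 0.23 (limma adjusted p = 0.0014). In 3 of these 4 probe sets the highest SKG array, replicate 3, stood clearly above the other SKG arrays and still below every BALB array. These 4 probe sets, 2.94- to 3.68-fold lower in SKG, kept their call in each of the 18 alternatives of processing and array choice that tested them, at differences between -2.26 and -1.39.

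The fifth Bcl2l11 probe set, 1456005_a_at, the brightest of the gene, showed a smaller gap. Its difference of -0.32 was smaller in size than those of the brightest Mcl1 and Bcl2l1 probe sets, -0.39 and -0.66. Probe set 1456005_a_at had 12.87, 12.88 and 13.09 in SKG, against 13.34, 13.33 and 13.14 in BALB. The nearest arrays of the groups, SKG replicate 3 and BALB replicate 3, were 13.09 and 13.14. It fell by 0.32 ± 0.09 (SE, limma adjusted p = 0.037), a call kept in 10 of 19 alternatives. It was lost without SKG replicates 1 or 2 and without BALB replicates 1 or 2 (adjusted p from 0.13 to 0.14). It was also lost with no filter, no trend, trimmed mean scaling, no normalization or all 12 arrays in one fit (adjusted p from 0.12 to 0.50). Its interval, from -0.53 to -0.11, lay apart from those of the other 4, which reached from -2.55 to -1.02. Why the probe sets of this gene differ in size was not tested.

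**Figure D1:**
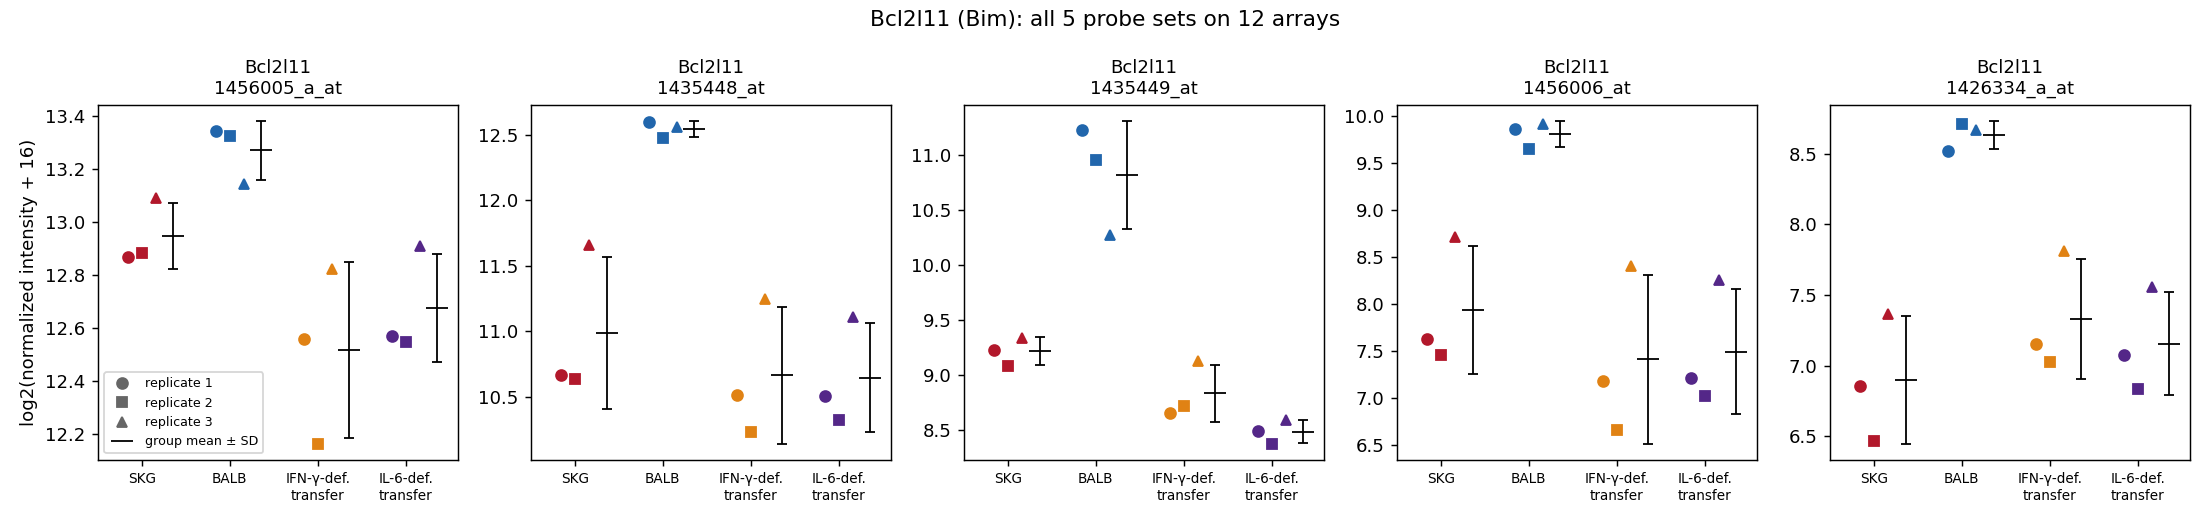
Level of each of the 5 Bcl2l11 probe sets, as log2(normalized intensity + 16), on each of the 12 arrays in the 4 groups, with replicates by marker shape and the group mean ± SD (n = 3) beside them. SKG arrays sit below BALB arrays in all 5, by differences between -1.88 and -1.56 in 4 of them and of -0.32 in 1456005_a_at. The y axes differ between panels.

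Mcl1, a short-lived guardian that T cells need at every stage, was lower in SKG by less. Probe set 1448503_at had 11.99, 12.16 and 12.14 in SKG, against 12.48, 12.43 and 12.56 in BALB. It fell by 0.39 ± 0.09 (SE, limma adjusted p = 0.017), with every SKG array below every BALB array. Probe set 1416881_at had 11.05, 10.93 and 10.73 in SKG, against 11.60, 11.62 and 11.30 in BALB, and fell by 0.61 ± 0.14 (limma adjusted p = 0.014). Probe set 1416880_at had 10.73, 10.69 and 10.46 in SKG, against 11.24, 11.07 and 11.26 in BALB, and fell by 0.56 ± 0.13 (limma adjusted p = 0.013). In all 6 probe sets of the gene the groups did not overlap, and the differences ran from -0.61 to -0.30. Those of 1437527_x_at and 1456243_x_at were -0.37 and -0.39 (limma adjusted p = 0.033 and 0.029). The sixth, 1456381_x_at, had a difference of -0.30 ± 0.11 that did not pass (limma adjusted p = 0.080, or 0.045 once the replicate number was a block). Names ending in x_at mark probe sets whose probes can match other sequences. Without BALB replicate 1 all 5 calls of Mcl1 were lost (adjusted p from 0.064 to 0.10), while the differences stayed between -0.56 and -0.38. Each of the 5 also lost its call in at least 1 other alternative or without a further array, with adjusted p up to 0.33.

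Bcl2l1, the gene of Bcl-xL, also fell in 2 of its 3 tested probe sets. Probe set 1420888_at had 10.32, 10.70 and 10.27 in SKG, against 11.23, 11.24 and 10.81 in BALB, and fell by 0.66 ± 0.17 (SE, limma adjusted p = 0.024). Probe set 1420887_a_at had 6.27, 6.57 and 6.25 in SKG, against 7.29, 7.39 and 6.81 in BALB, and fell by 0.80 ± 0.21 (limma adjusted p = 0.027). In both the highest SKG array, replicate 2, was the one nearest to the lowest BALB array, replicate 3. The third, 1426191_a_at, had 5.67, 5.82 and 5.77 in SKG, against 5.85, 6.46 and 5.82 in BALB, and did not pass (difference -0.29, 95% interval from -0.78 to 0.21). Both calls were lost without SKG replicate 1, without BALB replicate 1 and without BALB replicate 2 (adjusted p from 0.092 to 0.10). That of 1420887_a_at was also lost with no filter or all 12 arrays in one fit, and that of 1420888_at with no trend.

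Bcl2 itself, the guardian of resting T cells, gave no common direction. Probe set 1440770_at had 8.91, 9.40 and 9.36 in SKG, against 9.69, 9.84 and 9.92 in BALB, and fell by 0.59 ± 0.17 (SE, limma adjusted p = 0.040). This call was lost without any one of the 6 arrays other than SKG replicate 3 (adjusted p from 0.067 to 0.15). It was also lost with no filter, no normalization, no trend or all 12 arrays in one fit (limma adjusted p up to 0.19). In all it was kept in 9 of 18 alternatives. Probe set 1443837_x_at, with 7.32, 7.70 and 7.64 in SKG against 8.11, 7.99 and 8.33 in BALB, had a difference of -0.59 that did not pass (limma adjusted p = 0.053, or 0.030 under the replicate block). In both the groups did not overlap. Probe set 1457687_at instead had 9.95, 9.83 and 10.43 in SKG, against 9.86, 9.79 and 9.61 in BALB. Its groups overlapped and its difference of 0.31 had an interval from -0.09 to 0.72. Probe set 1437122_at had a difference of 0.14 (interval from -0.47 to 0.74) and 1422938_at one of -0.39 (interval from -0.99 to 0.21). The last passed without BALB replicate 3 (-0.71, adjusted p = 0.029). Probe sets of Bcl2 therefore disagree in sign, and no single value for the gene is given.

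The effector and the other BH3-only genes gave no call between SKG and BALB. Bak1 (1418991_at) had 5.79, 5.43 and 5.75 in SKG, against 6.19, 5.64 and 6.10 in BALB, with overlapping groups and an interval of the difference from -0.82 to 0.17. Bbc3, the gene of the p53 target Puma, had 5.43, 5.62 and 5.49 in SKG, against 5.70, 5.98 and 5.94 in BALB. All SKG arrays were lower, yet the difference of -0.36 ± 0.19 did not pass (limma adjusted p = 0.22). Bid, which links death receptors to mitochondria once cleaved, had 9.16, 8.79 and 9.17 in SKG, against 9.40, 9.05 and 9.10 in BALB (1417045_at). Its 3 probe sets had differences of -0.14, 0.02 and -0.44, and all intervals held 0.

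Pmaip1, the gene of Noxa, which neutralizes Mcl1, was the only one of the 4 BH3-only members with a positive difference over 0.1. It had 9.02, 8.81 and 7.46 in SKG, against 8.12, 8.32 and 7.37 in BALB. SKG replicates 1 and 2 were above all BALB arrays, while SKG replicate 3 was below BALB replicates 1 and 2. The difference of 0.50 ± 0.40 did not pass (limma adjusted p = 0.44). Without SKG replicate 3 it was 0.98 (adjusted p = 0.033), and with replicates 1 and 2 only, an alternative chosen after seeing the data, it was 0.69 (adjusted p = 0.0037).

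**Figure D2:**
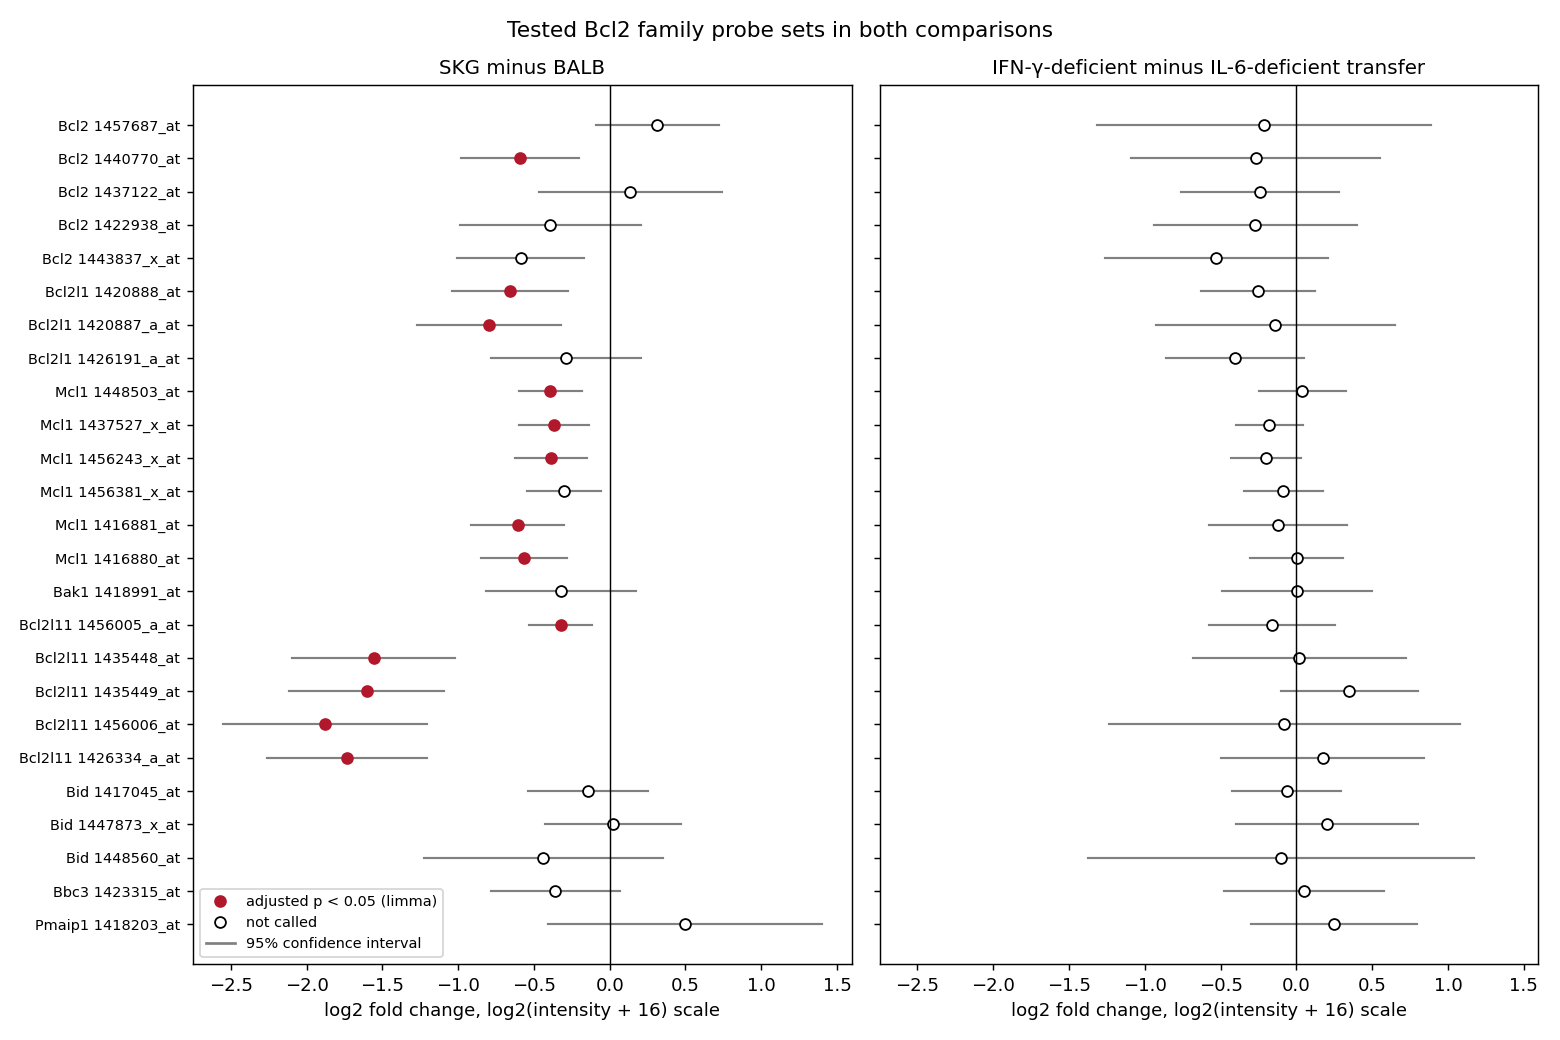
Difference of each of the 25 tested member probe sets with its 95% confidence interval, SKG minus BALB on the left and IFN-γ-deficient minus IL-6-deficient transfer on the right, on the log2(intensity + 16) scale, filled where the adjusted p is under 0.05. On the left 13 are called, all below 0, and on the right none is.

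Other transcripts moved with the same groups. All 6 measured CD4 T cell markers (Cd3d, Cd3e, Cd3g, Cd4, Cd5 and Cd28) were above the floor on every array, with summed normalized intensities of 8746 to 9134 in SKG and 9466 to 9708 in BALB. Cd5 alone was called, lower in SKG with a difference of -0.96, and the other 5 had differences from 0.09 to 1.05. Under the replicate block Cd3g passed too, higher in SKG by 1.05 (limma adjusted p = 0.00069). Without Cd5 the sum was 6024 to 6859 in SKG and 4831 to 5735 in BALB. The summed intensity of 7 B cell markers was 2884 to 6757 in SKG and 718 to 2452 in BALB, while Pax5 and Cd79b averaged under the floor in both. Of the 5 B cell markers tested only Ighm was called, at 12.13 ± 0.65 in SKG and 10.20 ± 0.89 in BALB (SD, n = 3 each). Of 7 further tested Ighm probe sets, with differences from -0.23 to 1.53, only 1 was called higher. The differences of Cd79a, Ms4a1, Cd22 and Blnk ran from 0.22 to 0.37. Plasma cell markers summed to 5070 to 5233 in SKG and 2309 to 2809 in BALB, and CD8 markers to 29.0 to 126 in SKG and 238 to 254 in BALB. Markers within these lists moved unequally too. Xbp1 and Derl3 were called higher by 1.01 and 0.80 while Sdc1 had a difference of -0.64 (its second probe set, -1.20, was called lower) and Tnfrsf17 was too dim to be tested. Cd8b1 fell by 2.51 and Cd8a had a difference of 0.81 that did not pass (limma adjusted p = 0.081). The actin 3'/5' signal ratio, a sign of RNA or labelling quality, was 1.93 to 2.63 in SKG and 2.95 to 3.98 in BALB, and the Gapdh ratio was 2.57 to 3.03 in SKG and 2.86 to 3.28 in BALB, with overlap. The part of these differences in the lower Bim, Mcl1 and Bcl-xL values was not tested. In bulk samples fewer cells of a type and less RNA per cell cannot be told apart.

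The mutated, deleted and sorted genes were read on the same scale. Zap70, mutated in SKG mice, had 10.84, 11.05 and 10.83 in SKG, against 11.67, 11.63 and 11.23 in BALB. Ifng had 8.87 to 9.78 in the IFN-γ-deficient transfer, against 13.54 to 13.59 in the IL-6-deficient transfer. Il6 had 4.56 to 6.84 in the IFN-γ-deficient transfer, against 5.67 to 8.03 in the IL-6-deficient transfer, so it was not lower under the IL-6 label and does not check it. Izumo1r, the gene of FR4, had 6.99, 7.15 and 7.36 in SKG, against 6.44, 6.38 and 6.14 in BALB. BALB replicate 1, with no FR4 sort in its label, was close to BALB replicate 2, and all SKG arrays were above all BALB arrays.

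No member was called between the transfers. Of the 25 tested member probe sets 0 passed in either direction by limma, also 0 with the replicate block, with 0 of the 25 at an unadjusted p under 0.05 without the block and 5 with it (1420888_at of Bcl2l1, 1443837_x_at of Bcl2, 1435449_at of Bcl2l11 and 1437527_x_at and 1456243_x_at of Mcl1, lowest limma adjusted p = 0.24). Over all 27022 probe sets 0.0444% were called, with 1105 at an unadjusted p under 0.05, and 1.11% with the replicate block. The median difference was -0.10 over the members and 0.0016 over all probe sets tested. Groups did not overlap for 4 of the 25, 2 of Mcl1, 1 of Bcl2l1 and 1 of Bcl2l11, and for 9.7% of all probe sets tested.

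Bim values of the transfers lay close together. Bcl2l11 probe set 1435448_at had 10.51, 10.23 and 11.24 in the IFN-γ-deficient transfer, against 10.50, 10.32 and 11.11 in the IL-6-deficient transfer. Its difference was 0.02, with an interval from -0.69 to 0.72. Probe set 1435449_at had 8.65, 8.72 and 9.13 in the IFN-γ-deficient transfer, against 8.49, 8.37 and 8.59 in the IL-6-deficient transfer, and a difference of 0.35 (interval from -0.10 to 0.80). The intervals of these 2 probe sets did not reach the differences of -1.56 and -1.60 seen between SKG and BALB. For 1456006_at the interval, from -1.24 to 1.08, was wider and did not reach its -1.88 either. It overlapped the interval of that difference between SKG and BALB, from -2.55 to -1.20. The direct contrast of both differences, given below, did not pass for 1456006_at or 1435448_at (limma adjusted p = 0.13 and 0.053). For 1456005_a_at, the brightest Bcl2l11 probe set, the interval from -0.58 to 0.26 held its difference of -0.32 between SKG and BALB.

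No guardian was called between the transfers. For Bcl2 probe set 1440770_at the interval, from -1.09 to 0.55, held the difference of -0.59 called between SKG and BALB. Mcl1 (1448503_at) had 11.98, 12.07 and 12.17 in the IFN-γ-deficient transfer, against 12.04, 11.83 and 12.23 in the IL-6-deficient transfer, with an interval of the difference from -0.25 to 0.33. Bcl2l1 (1420888_at) had 10.54, 10.21 and 10.19 in the IFN-γ-deficient transfer, against 10.76, 10.50 and 10.43 in the IL-6-deficient transfer, a difference of -0.25 (interval from -0.63 to 0.13). Bcl2l1 probe set 1426191_a_at had 6.03, 5.65 and 5.73 in the IFN-γ-deficient transfer, against 6.04, 6.29 and 6.30 in the IL-6-deficient transfer, a difference of -0.40 (interval from -0.86 to 0.05). All 5 Bcl2 probe sets had negative differences, from -0.53 to -0.21, and each interval held 0. For Pmaip1 the values were 8.80, 9.06 and 8.36 in the IFN-γ-deficient transfer, against 8.67, 8.57 and 8.24 in the IL-6-deficient transfer (interval from -0.30 to 0.80).

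Much of the spread within the transfers set replicate 3 of both groups apart. Bcl2 probe set 1457687_at had 9.38 in replicate 3 of the IFN-γ-deficient transfer, against 7.78 and 8.28 in the other two. In the IL-6-deficient transfer it had 9.47 in replicate 3 and 8.36 and 8.24 in the others. Bid probe set 1448560_at went the other way, with 4.63 in replicate 3 of the IFN-γ-deficient transfer and 4.77 in replicate 3 of the IL-6-deficient transfer, while the other 4 arrays had 6.05 to 6.29. The Gapdh 3'/5' ratio was 7.99 and 9.33 in these replicate 3 arrays and 2.42 to 2.84 in the other 4 transfer arrays. Neutrophil markers summed to 69.9 to 216 in the IFN-γ-deficient transfer and to 18.9 to 1160 in the IL-6-deficient transfer. CD4 T cell markers summed to 11384 to 12900 and to 10125 to 11581 in the same order. The part of the Gapdh ratio or of these sums in the member values was not tested.

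For 2 of the 5 Bim probe sets the difference was larger between SKG and BALB than between the transfers. The contrast of both differences was -1.95 ± 0.32 for 1435449_at and -1.91 ± 0.39 for 1426334_a_at (SE, limma over all 12 arrays, adjusted p = 0.0053 and 0.016). Of the other Bcl2l11 probe sets, 1435448_at had -1.58 (adjusted p = 0.053), 1456006_at -1.80 (0.13) and 1456005_a_at -0.16 (0.75). Of the 25 members 2 passed this test, both negative, where 2.06% of all probe sets were called negative. With the replicate block 7 passed, 4 of Bcl2l11 and 3 of Mcl1, where 8.48% of all probe sets were called negative.

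Across all 4 groups Bim had its highest level in BALB in each of its 5 probe sets, and every BALB array was above every array of the other groups. In 4 of the 5 SKG came next by mean and in 1426334_a_at it came last, and in every case SKG overlapped with its neighbour among the transfers. The transfers overlapped each other in all but 1435449_at. Mcl1 was likewise highest in BALB in all 6 probe sets. In 3 of them (1448503_at, 1416881_at and 1416880_at) SKG came next and overlapped with the transfer below it. In the other 3 SKG was lowest and BALB overlapped with the IL-6-deficient transfer. For 1448503_at the group means were 12.10 ± 0.09 in SKG, 12.49 ± 0.07 in BALB, 12.07 ± 0.09 in the IFN-γ-deficient and 12.03 ± 0.20 in the IL-6-deficient transfer (SD, n = 3 each).

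Bcl2 ran in another order. All 5 of its probe sets had both transfers below both SKG and BALB by group mean. For 1440770_at the means were 9.22 ± 0.27 in SKG, 9.82 ± 0.12 in BALB, 7.26 ± 0.37 in the IFN-γ-deficient and 7.53 ± 0.64 in the IL-6-deficient transfer (SD, n = 3 each). In 4 of the 5 every SKG and BALB array was above every transfer array, and 1422938_at was the one where these ranges overlapped. The transfers overlapped each other in all 5.

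Bak1 and Pmaip1 had their highest means in the transfers. Bak1 (1418991_at) averaged 5.66 ± 0.20 in SKG, 5.98 ± 0.30 in BALB, 6.27 ± 0.27 in the IFN-γ-deficient and 6.26 ± 0.17 in the IL-6-deficient transfer (SD, n = 3 each), and each group overlapped with the next. Pmaip1 averaged 8.43 ± 0.85, 7.93 ± 0.50, 8.74 ± 0.35 and 8.49 ± 0.22 in the same 4 groups, and Bbc3 5.52 ± 0.10, 5.87 ± 0.15, 5.66 ± 0.17 and 5.61 ± 0.33. Bid (1417045_at) lay between 9.04 and 9.18 in all group means. In none of these did a group stand apart from its neighbour in the order. No test was made between SKG or BALB and the transfers, since age, organ, labelled stimulation and host change together.

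**Figure D3:**
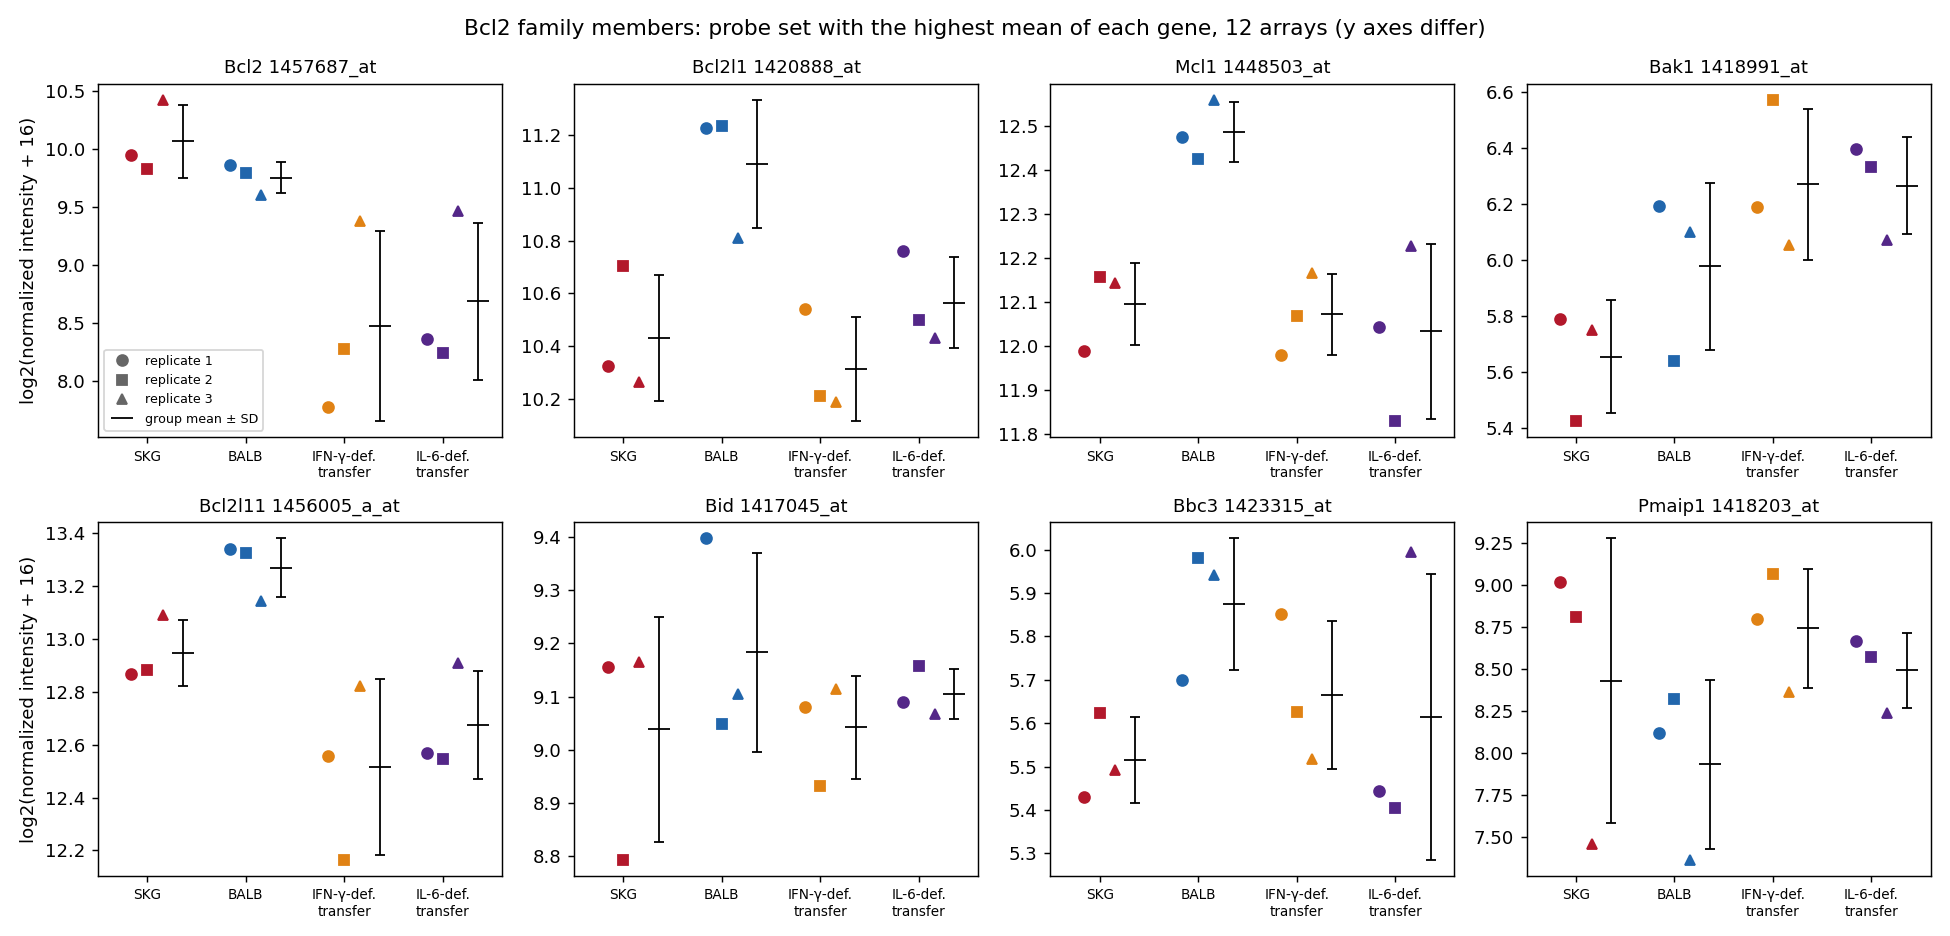
Level of each member gene, as log2(normalized intensity + 16), on the 12 arrays, shown for the probe set of the gene with the highest mean, with the group mean ± SD (n = 3). BALB arrays sit above SKG arrays in Bcl2l1, Mcl1 and Bcl2l11, Bcl2 is lower in both transfers, and the groups of Bak1, Bid and Pmaip1 overlap. The y axes differ between panels.

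Other genes of the death machinery were read by 1 probe set a gene in 4 lists. Beside each list count below stand 10.3% of all probe sets called higher and 9.89% lower, or 14.2% and 13.6% under the replicate block. These shares count every tested probe set, while the lists hold 1 probe set a gene, so they are not a matched base rate. With the brightest probe set per gene, 1889 were called higher and 1437 lower, and the share of genes called may differ. Of 10 tested other Bcl2 family genes, 8 had both group means at or over the floor, and of these 1 was higher and 1 lower, with a median difference of -0.27. The other two, Bcl2l15 and Bcl2l2, averaged under the floor in BALB, and reached the test only because SKG was higher, so their levels are given without a test. Bcl2l15 was 6.84 ± 0.66 in SKG and 4.59 ± 0.65 in BALB, and Bcl2l2, the gene of the guardian Bcl-w, 5.57 ± 0.36 in SKG and 4.57 ± 0.34 in BALB (SD, n = 3 each). Bik, a BH3-only gene, rose by 1.05 ± 0.24 (SE, limma adjusted p = 0.014), a call lost without SKG replicate 1 (adjusted p = 0.065). The second probe set of Bik had a difference of 0.38 and was not called. Bnip3, a mitochondrial BH3 protein known from hypoxia and mitophagy, fell by 1.16 ± 0.19 (limma adjusted p = 0.0034).

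Downstream of the mitochondria 2 of 13 tested genes were higher and 2 lower, with a median of 0.20, or 4 higher and 3 lower under the replicate block. Aifm1, the gene of apoptosis-inducing factor, rose by 1.29 ± 0.26 and Apaf1, the scaffold of the apoptosome, by 0.85 ± 0.19 (SE, limma adjusted p = 0.0080 and 0.013). Endog, a mitochondrial nuclease, fell by 1.62 ± 0.32 and Htra2, a mitochondrial protease, by 0.60 ± 0.18 (limma adjusted p = 0.0077 and 0.047). Apaf1 lost its call without SKG replicates 1 or 2 or BALB replicate 1, its other tested probe set had a difference of 0.06 and was not called, and Htra2 lost its call in 12 of 19 alternatives. Cytochrome c (Cycs) was 13.30 ± 0.13 in SKG and 13.26 ± 0.05 in BALB (SD, n = 3 each).

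In the death receptor arm 0 of 9 tested genes were higher and 3 lower, with a median of -0.38, or 2 higher and 4 lower under the replicate block. Fasl, the ligand of Fas, was 10.28 ± 0.19 in SKG and 11.01 ± 0.16 in BALB (SD, n = 3 each) and fell by 0.73 ± 0.15 (SE, limma adjusted p = 0.0081). Tnfrsf1a, a TNF receptor, fell by 1.01 ± 0.24 and Cflar, the gene of the caspase-8 inhibitor c-FLIP, by 0.38 ± 0.11 (limma adjusted p = 0.017 and 0.039). The second probe set of Fasl, with -0.62, was not called, and of 4 further Cflar probe sets, from -0.78 to 0.06, only 1 was called lower. Cflar lost its call in 10 of 19 alternatives, among them without each array in turn except SKG replicate 3, and Tnfrsf1a lost it without SKG replicates 1 or 2. Fas had a difference of -1.48 ± 0.51 that did not pass (limma adjusted p = 0.072, or 0.0041 under the replicate block).

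Among 18 tested regulators of the family 4 were higher and 6 lower, with a median of -0.07, or 4 higher and 8 lower under the replicate block. Foxo3, a factor known to activate Bim transcription when growth factor signals are withdrawn, was 7.16 ± 0.02 in SKG and 8.87 ± 0.17 in BALB (SD, n = 3 each), and fell by 1.72 ± 0.17 (SE, limma adjusted p = 0.00035). Stat5a, which carries cytokine survival signals, fell by 0.71 ± 0.12 (limma adjusted p = 0.0037). Il7r, the receptor of the survival cytokine IL-7, rose by 1.56 ± 0.16 and Il2ra, the high-affinity IL-2 receptor chain, by 0.99 ± 0.16 (limma adjusted p = 0.00036 and 0.0036). The second tested probe sets of Foxo3, Stat5a, Il7r and Il2ra were called in the same directions. Foxo3, Il7r and Il2ra kept their call in all 19 alternatives.

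Between the transfers 0 genes of these 4 lists passed, with 9, 13, 9 and 19 tested. Fasl had 9.79 ± 0.12 in the IFN-γ-deficient and 10.55 ± 0.13 in the IL-6-deficient transfer (SD, n = 3 each), a difference of -0.75 ± 0.14 (SE, limma adjusted p = 0.44, or 0.011 under the replicate block). Under the block Birc3, an inhibitor of apoptosis, also passed, with a difference of 0.46 (adjusted p = 0.042). The second tested probe sets had smaller differences, -0.14 for Fasl and 0.18 for Birc3, and neither was called without the block.

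**Figure D4:**
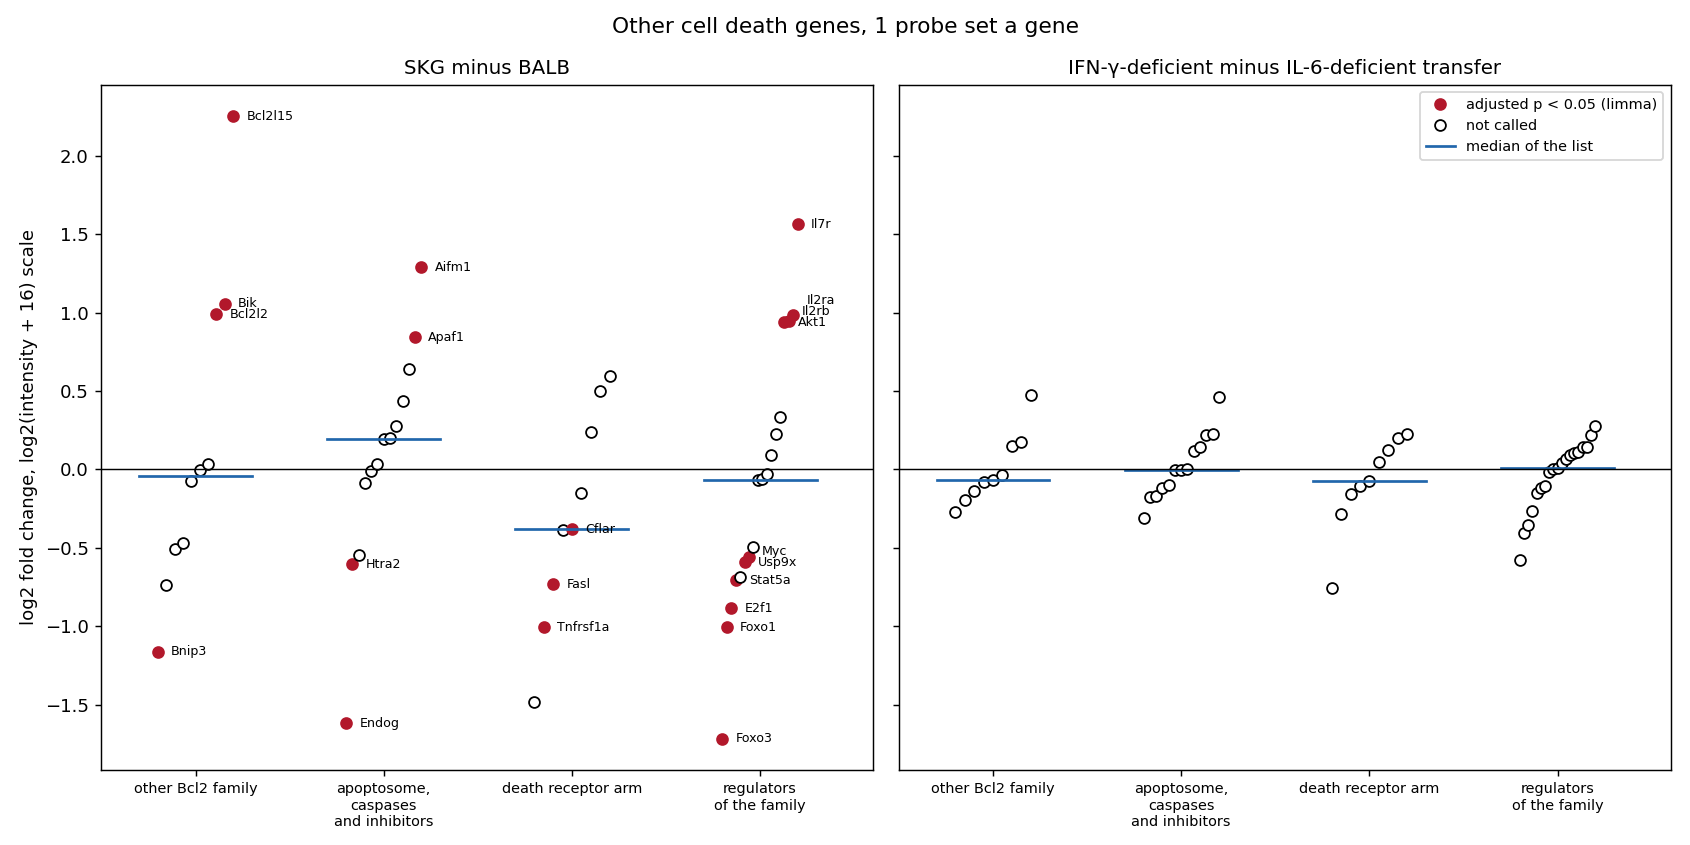
Differences of other cell death genes, 1 probe set a gene, in 4 lists, SKG minus BALB on the left and IFN-γ-deficient minus IL-6-deficient transfer on the right, on the log2(intensity + 16) scale, with filled points for adjusted p under 0.05 and lines at list medians. Called genes with both group means over the floor run from -1.72 for Foxo3 to 1.56 for Il7r on the left, where Bcl2l15 and Bcl2l2, under the floor in BALB, are drawn as well, and none is called on the right.

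Genes whose level over the 12 arrays was most like a member's were sought among 12176 genes, by Pearson r over the 12 arrays, which share their 4 groups. Each gene, member or other, was read only by its probe set with the highest mean. For Bcl2l11 that was 1456005_a_at, with the smaller SKG to BALB difference of -0.32, and for Bcl2 1457687_at, with 0.31. The likenesses of these genes therefore do not cover their other probe sets. For Bcl2l11 these were Elovl2, Map3k8 and Ppm1b (r from 0.97 to 0.98), and for Bcl2 they were Ms4a6b, Trim39 and Fam185a (0.95 to 0.98). For Mcl1 they were Tgfbr3, Dusp8 and Clk1 (0.96 to 0.97), for Bcl2l1 Dcaf12, Cyp11a1 and Rbm22 (0.92 to 0.93) and for Pmaip1 Cep120, Dhx29 and Naa16 (0.91 to 0.93). Bak1 was most like Gtf2ird2, Zcchc3 and Zfp574 (0.90 to 0.92) and Bbc3 most like Nrg2, Accs and Plekhd1os (0.88 to 0.90). Bid had the loosest likeness, with S100pbp, Hars and Mob3c (0.77 to 0.84).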

How the data were processed

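The deposited values are linear intensities, 1 per probe set and array. What software made these deposited intensities is not given in the sources used here. RNeasy extraction and biotin labelling are named by the labels. Array medians ran from 15.7 to 27.6. After 64 control probe sets were left out, all 12 arrays were quantile normalized together, so that the 4 groups share 1 scale. Then 16 was added to the normalized intensity before its log2 was taken. The array annotation gave 1 gene for 34945 probe sets, several for 932 and none for 9160, and symbols were updated by gene ID to GRCm38.p6. Precision is limited by the number of arrays.

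Fits used limma 3.58.1 in R 4.3.3 (lmFit, eBayes with trend), 6 arrays for either comparison and 12 for the contrast of both differences. Tests were two-sided, with p-values adjusted by Benjamini-Hochberg over every probe set tested. The fits were also run on simulated data with independent noise on each array. Such data lack the shared deviation of same-numbered arrays described below, so they do not test its effect on the calls. Gene lists used the probe set of each gene with the highest mean, and up to 4 genes a list with the smallest p are named. The members and lists were chosen with earlier results of these data known.

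Replicates are numbered 1 to 3 by the labels. Same-numbered arrays deviated together from their group means, with correlations across probe sets of 0.15, 0.17 and 0.35 for SKG with BALB and of 0.43, 0.41 and 0.68 for the transfers. All are over 0.1, so blocked values stand beside the member calls and list counts that they change. Replicates 1 and 2 also deviated together across numbers, at 0.15 to 0.19 and 0.38 to 0.42.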

Additional observations from a re-analysis of the deposited data

Results flagged for a closer look

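For 2 of the 5 Bim probe sets the difference between SKG and BALB was unlike that between the transfers in a direct test of the contrast of both differences. For Bcl2l11 probe set 1435449_at the contrast was -1.95 (95% interval from -2.64 to -1.26, limma adjusted p = 0.0053). For Bcl2l11 probe set 1426334_a_at it was -1.91 (interval from -2.75 to -1.06, limma adjusted p = 0.016). In both probe sets all 3 SKG arrays were below all 3 BALB arrays, and both kept their call in all 22 alternatives that tested them. The other 3 did not pass, with contrasts of -1.58 for 1435448_at, -1.80 for 1456006_at and -0.16 for 1456005_a_at, the brightest (limma adjusted p = 0.053, 0.13 and 0.75), and with the brightest probe set per gene 0 members passed. The pairs of groups differ in age, organ, labelled stimulation and host, whose part in this contrast cannot be told apart.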

How the results depend on the processing

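The 4 strongest Bcl2l11 probe sets stayed called lower in SKG in all 18 alternatives that tested them, with limma adjusted p up to 0.022. The brightest probe set per gene tests only 1456005_a_at for Bcl2l11. The count of member probe sets called lower, 13, became 7 with no filter, 7 with no normalization, 7 with no trend and 3 with the brightest probe set per gene, where fewer probe sets are tested. It ran from 4 to 14 when each array was left out in turn, and that of members called higher from 0 to 1. With replicates 1 and 2 only, an alternative chosen after seeing the data, 1 member was called higher. Among all probe sets, called higher and lower in SKG were 1578 and 1523 with no normalization, 4514 and 4462 with array weights and 4542 and 4498 with replicates 1 and 2 only. The brightest probe set per gene gave 1437 lower. Leaving out arrays gave 1430 to 3225 higher and 1496 to 3258 lower.

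Between the transfers 0 members were called in all settings. All probe sets called higher and lower were 90 and 77 with array weights, 27 and 12 with 12 arrays in one fit and 396 and 328 with replicates 1 and 2 only, and 2 were lower with no trend. With the replicate block they were 137 and 163. Leaving out arrays gave 1 to 24 higher and 1 to 12 lower.

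For the contrast of both differences, negative members, 2 as reported, numbered 8 with array weights, 7 with the replicate block, 7 with replicates 1 and 2 only, 0 with the brightest probe set per gene and 2 to 5 with an array left out. All probe sets called positive and negative were 335 and 235 with no normalization, 2901 and 2713 with array weights, 2680 and 2292 with the replicate block, 3317 and 2916 with replicates 1 and 2 only, and 317 to 1072 and 233 to 959 with an array left out. The cause of these shifts was not tested. The replicate block changed no other member call than those given. Values called in neither setting changed sign in 7, 35 and 15 of 457, 458 and 557 member values of the 3 tests, and no called value reversed.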
